A study of Mus musculus with 4 samples.

Results

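The 38 genes described here encode the machinery that brings newly made secretory proteins, proinsulin among them, into the endoplasmic reticulum (ER) and the coats that carry them onward. They were taken by gene name from a table of 54532 gene models, and each name matched a single row. All 38 reached at least 1 FPKM in at least 2 libraries, as did 12716 genes in all. Each was above that level in all 4 libraries. FPKM, the authors' unit, is fragments divided by gene length and by a scale of each library, which was not its sum of reads alone. RNA came from pancreatic islets of male C57BL/6 mice, 10 to 12 weeks of age. Of the 4 libraries, 2 were wild type (wild type 1 and 2) and 2 carried the miR-29a/b-1 transgene, which the series title places specifically in pancreatic beta cells (transgenic 1 and 2). The labels name neither the promoter of the transgene nor the founder line. They also do not say whether a library holds the islets of 1 animal or of several, so p-values reflect how far these particular libraries vary, a variation that may be technical. Where a gene is given 4 values below, they stand in the order wild type 1, wild type 2, transgenic 1, transgenic 2.

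A protein that is to be secreted carries a signal peptide, which the signal recognition particle binds as it leaves the ribosome. The particle docks on its receptor at the ER, the chain passes through the Sec61 channel with the help of the translocon-associated protein (TRAP) complex, and signal peptidase removes the signal peptide. Folded cargo then leaves in vesicles coated with COPII, p24 proteins serve as cargo receptors, and COPI vesicles return material from the Golgi to the ER. A beta cell sends preproinsulin down this route as its main product, so the pathway is in heavy use there.

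The miR-29 microRNAs of the transgene pair with messenger RNAs through their seed, bases 2 to 8 from the 5′ end, the main determinant of which messages they bind. The mature 3p arms from RefSeq (GRCm38.p6) are shown because their shared seed, in capitals, is the sequence searched for in the 38 genes.
mmu-miR-29a-3p: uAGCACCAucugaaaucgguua
mmu-miR-29b-3p: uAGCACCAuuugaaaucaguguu
The 7 bases that pair with this seed, TGGTGCT, occurred in the longest annotated 3′ UTR of 0 of the 38 genes (49.6 kilobases of 3′ UTR in GENCODE M21). They occurred in 1659 of the 10693 compared genes with a 3′ UTR of at least 50 bases (15.5%), at 11.1 matches per 100 kilobases. The 3′ UTRs of the 38 genes were shorter, with a median of 764 bases against 1189. The absence of these letters says nothing of pairing elsewhere in the transcript or of imperfect pairing.

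Promoters from RefSeq, 250 bases before to 50 after the start site, matched 31 of the 38 genes (8994 of the genes compared had one). Sec61a1, Ssr2, Spcs3, Sec11c, Srp19, Srp68 and Tmed2 had no entry. Both strands were searched for motifs known from ER stress, a state in which unfolded protein accumulates. The unfolded protein response element TGACGTGG, which the stress factors XBP1 and ATF6 can bind, was in the promoters of 4 of the 31 (12.9%) against 1.11% of the genes compared. Its inner letters ACGTG, which every match of the element also holds, were in 20 of the 31 (64.5%) against 29.9%. The median number of CpG per promoter was 20 in the 31 genes and 23 in the genes compared. The part of base composition in these shares was not tested. CCACG, which the element holds on its other strand, was in 20 of the 31 (64.5%) against 53.2%, and CCAAT in 10 (32.3%) against 42.5%. The ER stress element, CCAAT and CCACG with 9 bases between them, was in 0 of the 31 and in 0.167% of the genes compared, and ATTGG and CCACG with 1 base between them in 0 and 0.1%. A match is a description of the letters, not of binding. The 30 bases around each match of the response element are shown so that the sites can be compared, with the match in capitals and in the direction of transcription, on build GRCm38.p6.
Sec24d: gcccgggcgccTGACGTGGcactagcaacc
Sec23a: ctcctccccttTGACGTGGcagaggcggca
Copb1: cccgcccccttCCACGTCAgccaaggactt
Copb2: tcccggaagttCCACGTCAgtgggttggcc
They lie at chr3:123267459-123267488 (plus strand), chr12:59011993-59012022 (minus strand), chr7:114254690-114254719 (minus strand) and chr9:98563713-98563742 (plus strand). In Copb1 and Copb2 the element reads on the opposite strand. All 4 matches lie within 28 bases of the annotated start site, and all 4 genes encode vesicle coat subunits, 2 of COPII and 2 of COPI.

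Reads were recovered as whole multiples of a single step for 100% of the values above 0, and they summed to between 21670854 and 27080907 per library. The 38 genes held between 256 and 15157 reads each, and together they took 0.768% of the reads of wild type 1 (95% exact binomial interval 0.765 to 0.772), 0.629% of wild type 2 (0.626 to 0.632), 0.782% of transgenic 1 (0.779 to 0.786) and 0.651% of transgenic 2 (0.647 to 0.654). These intervals cover counting error only. The shares were lower where the insulin gene Ins2 took more of the reads, 20.1%, 26.6%, 12.8% and 25.5% in the order above. Of the reads outside the hormone genes Ins2, Ins1 and Iapp, the 38 genes took 1.05%, 0.945%, 0.969% and 0.957%. All 10 beta, 5 alpha and 4 delta and PP cell markers passed the level filter, and so did 21 of 24 markers of acinar cells, the exocrine cells around islets, which also make secreted protein at a high rate. Duct, endothelial, stellate and macrophage markers were read as well, and none of any list was at 0 in every library. The acinar markers summed to 5883, 1274, 7801 and 2102 FPKM. In bulk RNA, fewer cells of a type and less RNA per cell cannot be told apart.

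The genes spanned a wide range of levels, and subunits of the same complex lay far apart. Levels are comparable between genes only per length, and the deposited gene length was a median of 1.45 times the longest GENCODE transcript over the 38 genes (0.772 times for Sec11c to 2.12 times for Sec61a1), so they are approximate. Of the 3 core subunits of the Sec61 channel, the small subunit gene Sec61b was the highest of all 38 genes by its mean, at 129, 143, 131 and 129 FPKM. Sec61g, the gamma subunit, lay at 36.6, 49.9, 33.0 and 42.5 FPKM, and Sec61a1, the pore-forming alpha subunit, at 45.9, 29.4, 44.2 and 37.0. In both genotypes the library numbered 2 was thus higher for Sec61g and lower for Sec61a1. Sec62 and Sec63, which help chains to enter the channel, lay at 51.0 to 70.5 and at 15.2 to 20.1 FPKM.

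Among the TRAP genes, Ssr2, Ssr3 and Ssr4 reached similar levels, 72.4 to 125 FPKM, and Ssr1 was lower throughout, at 15.6 to 26.5. The signal peptidase genes Spcs1, Spcs2 and Spcs3 lay between 69.7 and 108 FPKM, above the catalytic subunit genes Sec11c (38.4 to 46.5) and Sec11a (13.8 to 16.4). In the signal recognition particle, Srp14 (72.2 to 90.8 FPKM) and its heterodimer partner in the Alu domain, Srp9 (18.6 to 21.2), differed by several fold per length. In reads they were similar, at 2212 to 2754 and 2249 to 2813, so the gap rests on the lengths, deposited as 1195 and 5541 bases. The longest transcripts, of 798 and 3719 bases, also differ by several fold. Srp68 lay at 46.8 to 63.7 FPKM, Srp72 at 29.8 to 45.4 and Srp19 at 7.88 to 9.78. Srprb, the membrane-anchored subunit of the receptor, lay at 6.79 to 13.0.

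Of the vesicle coats, the GTPase genes Sar1a and Sar1b, which start COPII assembly, were the highest, at 82.1 to 89.5 and 63.9 to 96.8 FPKM. The outer coat genes Sec31a and Sec13 lay at 26.1 to 48.8 and 29.2 to 34.9 FPKM, and those of the inner, cargo-binding coat at 2.63 to 31.5. The p24 genes Tmed2 (84.8 to 113 FPKM), Tmed3 (85.3 to 98.3) and Tmed10 (46.8 to 59.9) included 1 gene, Tmed10, below the range of Ssr2, Ssr3 and Ssr4. The COPI genes Copa, Copb1 and Copb2 lay close together, between 41.0 and 67.3 FPKM.

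**Figure D1:**
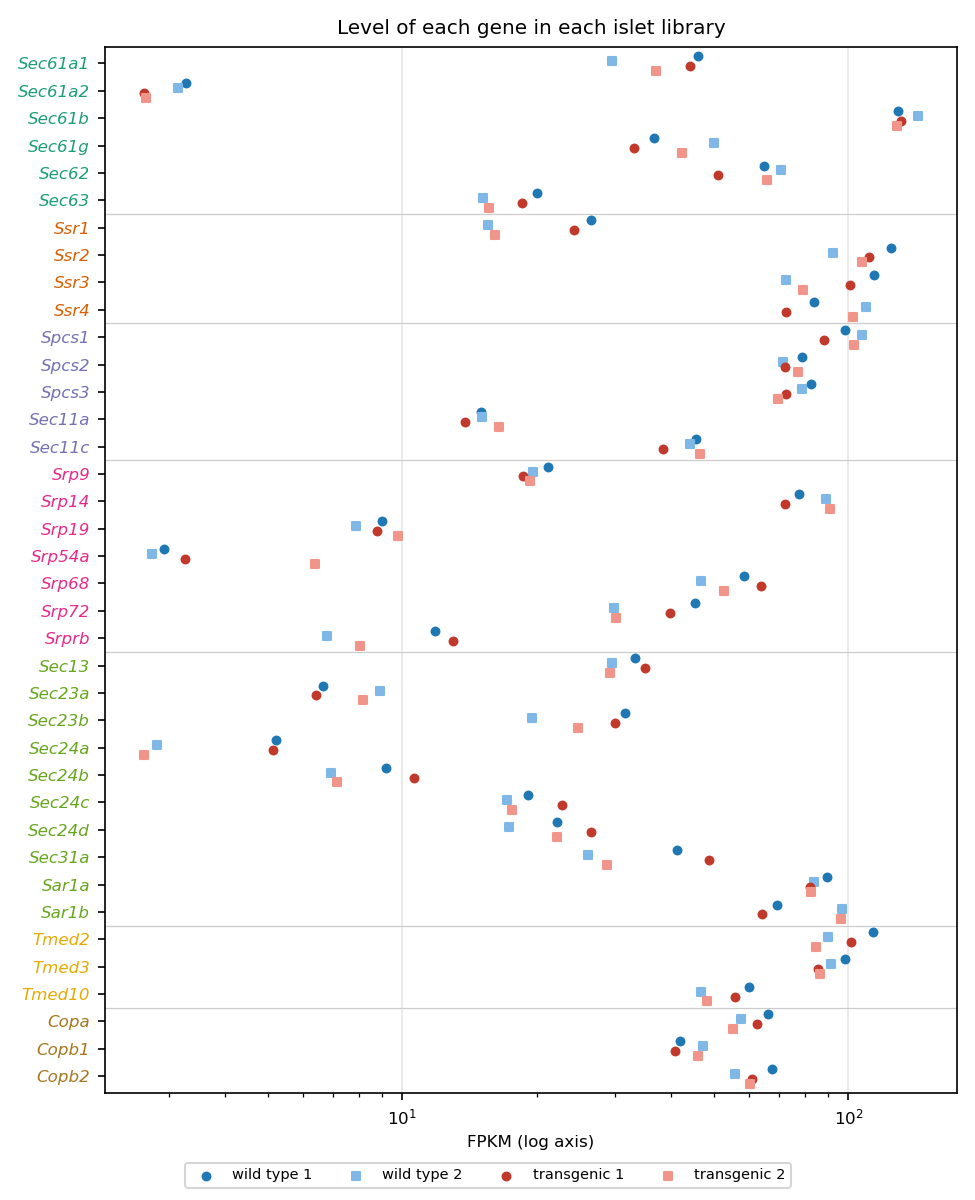
FPKM on a log axis of each of the 38 genes in the 4 islet libraries, blue for wild type and red for transgenic, circles for number 1 and squares for number 2, with gene names coloured by role. Sec61b stands highest at 129 to 143 FPKM, and for many genes circles and squares separate more than blue and red.

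Where a step has several gene copies, 1 of them usually led. Of the summed FPKM of both alpha subunit genes, Sec61a1 held 93.3%, 90.3%, 94.4% and 93.3%. Sec11c held 73.6% to 75.2% of the Sec11 total in every library. Sec23b, the larger share of the GTPase-activating subunit, held 82.6% in wild type 1 and 82.4% in transgenic 1 but 68.7% and 75.3% in wild type 2 and transgenic 2. Sar1a held 56.4% and 56.3% in the libraries numbered 1 and 46.4% and 46.1% in those numbered 2. By FPKM the order of Sar1a and Sar1b thus differed between numbers in both genotypes. That order, unlike the shift in share, depends on the lengths used. The deposited lengths were 3740 bases for Sar1a and 1255 for Sar1b, against longest transcripts of 2613 and 1201. Among the Sec24 genes, whose proteins pick the cargo, Sec24d held 39.2% to 44.9% and Sec24c 34.3% to 38.8%, ahead of Sec24b (14.4% to 16.5%) and Sec24a (5.30% to 9.33%). Sec24d and Sec24c were nearly equal in wild type 2, at 39.2% and 38.8%.

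**Figure D2:**
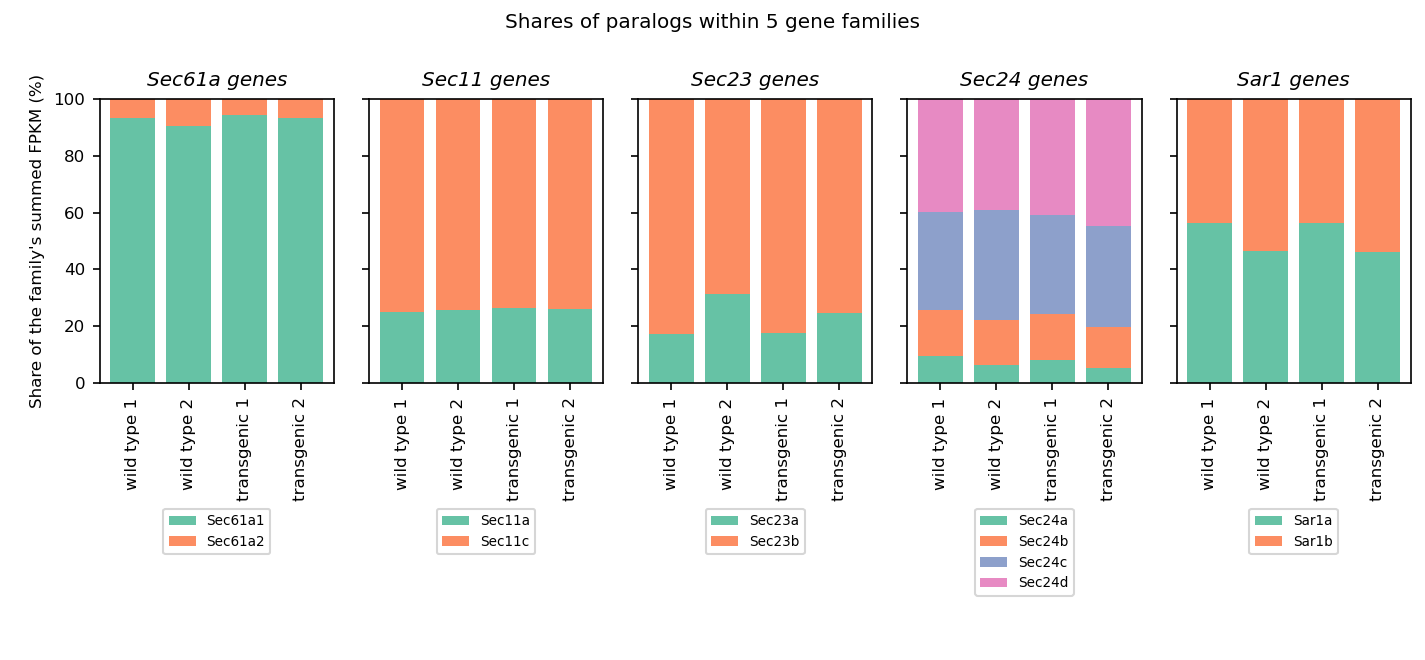
Share of each paralog in the summed FPKM of its family (percent, stacked bars from 0 to 100) for each of the 4 libraries. The shares of Sec23 and Sar1 differ between library numbers, with Sar1a at 56.4% and 56.3% in number 1 and 46.4% and 46.1% in number 2.

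Genotype was compared to ask which of these transcripts differ when beta cells carry the miR-29a/b-1 transgene. No gene of the pathway passed the test. Limma, fitted to log2(FPKM + 1) by genotype alone, with Benjamini-Hochberg adjustment over the 12716 genes, called 0 of the 38 higher and 0 lower, as it did for all genes (0% in each direction, with 83 genes at an unadjusted p under 0.05, none of them among the 38). Voom on the recovered reads also called 0 genes, with 32 at an unadjusted p under 0.05. With 2 libraries per genotype, the smallest 2-sided p that exact permutation allows is 0.333. The summed FPKM of the 38 genes was 1968, 1818, 1832 and 1826. In number 1 this sum was lower in the transgenic library, while the share of reads was higher there (0.782% against 0.768%). The library scale of FPKM differs from the sum of reads, so the 2 measures need not move together.

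Because libraries with the same number resembled each other more than libraries of the same genotype did, differences are also given within each number. Pearson's r of log2(FPKM + 1) across genes, which are not independent replicates, was 0.985 and 0.989 between genotypes of the same number and 0.950 within each genotype. The median log2 difference of the 38 genes, transgenic minus wild type, was -0.11 in number 1 and 0.03 in number 2, against 0.02 and 0.01 over all genes compared. In number 1, 29 of the 38 were lower in the transgenic library (46.2% of all genes were), and in number 2, 17 were (47.6%). The tendency to lower values in number 1 was thus not seen in number 2: 14 genes were lower in number 1 and higher in number 2, 15 were lower in both and 7 higher in both. Among all genes these patterns held 18.7%, 27.4% and 33.5%. Acinar markers, whose sum was 1.33 times as high in transgenic 1 as in wild type 1 and 1.65 times in transgenic 2 as in wild type 2, moved the same way in both numbers. The sum of the beta cell markers was 0.677 times as high in transgenic 1 as in wild type 1 and 0.946 times in transgenic 2 as in wild type 2, the larger difference being in number 1. Most of that sum was Ins2, at 152363 FPKM in wild type 1 and 89340 in transgenic 1. Ins1, Iapp, G6pc2, Slc30a8 and Ucn3 were also lower in transgenic 1, but Mafa, Nkx6-1, Slc2a2 and Pdx1 were higher. The part of acinar or beta cell markers in these differences was not tested.

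**Figure D3:**
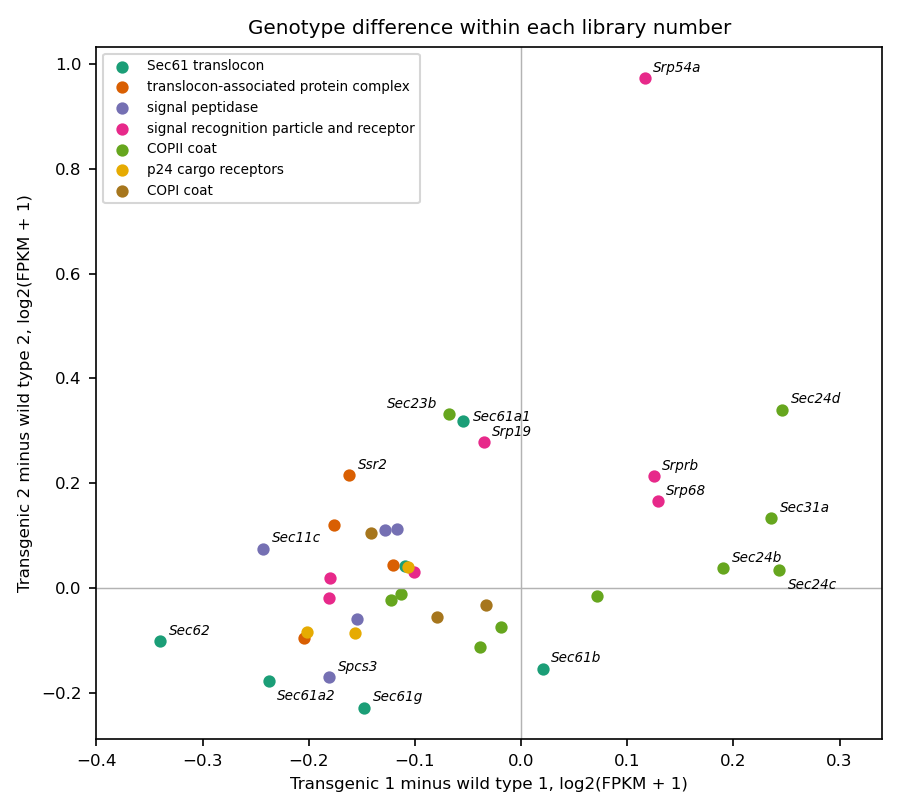
Difference of each of the 38 genes in log2(FPKM + 1), transgenic minus wild type, in number 1 (horizontal) and number 2 (vertical), coloured by role. Srp54a stands apart at 0.97 in number 2, the others lie between -0.34 and 0.34 on both axes, and Sec24d has the highest value in number 1, 0.25.

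Sec24d, a COPII cargo adaptor (chromosome 3), lay at 22.2, 17.4, 26.5 and 22.3 FPKM. Both transgenic libraries were above both wild-type ones, but wild type 1 and transgenic 2 were nearly equal. The means were 19.8 ± 3.42 and 24.4 ± 3.02 (SD, n = 2), a log2 difference of 0.29 ± 0.20 (standard error, limma adjusted p = 1.00). It was 0.25 in number 1 and 0.34 in number 2, and over all libraries but 1 it ran from 0.12 without wild type 2 to 0.46 without wild type 1. In voom with number as a term, a fit chosen with earlier results known, the fold was 0.29 ± 0.09 with an adjusted p of 0.0719.

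Srp54a, the signal-peptide-binding subunit of the recognition particle (chromosome 12), had the largest difference of the 38 genes, with levels of 2.92, 2.75, 3.25 and 6.36 FPKM. Only transgenic 2 stood apart. The log2 difference was 0.54 ± 0.29 over all libraries (limma adjusted p = 1.00), 0.12 in number 1 and 0.97 in number 2, and 0.15 without transgenic 2. Voom with number as a term called Srp54a higher (0.71 ± 0.14, adjusted p = 0.000925), the only one of the 38 genes it called. Of all genes that fit called 1.38% higher and 0.322% lower.

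The genes Srp54b and Srp54c are near copies of Srp54a beside it on chromosome 12, so counting can split their reads. Srp54a was assigned 371, 380, 446 and 712 reads. Srp54b was assigned 96, 504, 380 and 145, and Srp54c 1114, 853, 1135 and 857. In transgenic 2, where Srp54a was highest, Srp54b was below its reads in wild type 2 and transgenic 1 but above those in wild type 1. In wild type 1 both Srp54a and Srp54b had their fewest reads. By FPKM, however, Srp54a was lowest in wild type 2 (2.75, against 2.92 in wild type 1), where Srp54b was highest (4.31). The 3 genes together had 1581, 1737, 1961 and 1714 reads, of which Srp54a held 23.5%, 21.9%, 22.7% and 41.5%. Summed, a step added after seeing the data, they gave 16.6, 16.1, 18.6 and 19.1 FPKM, with a log2 difference of 0.19 ± 0.13 (limma adjusted p = 1.00). Whether reads moved between the copies was not tested, and the value of Srp54a alone is uncertain.

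**Figure D4:**
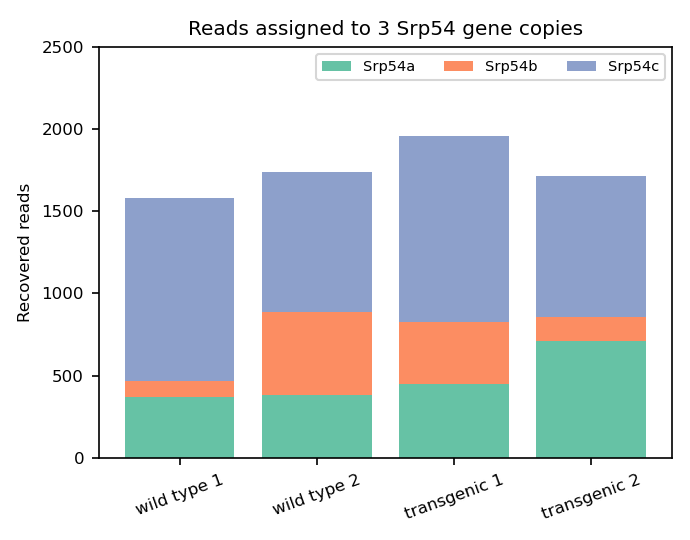
Recovered reads assigned to Srp54a, Srp54b and Srp54c (stacked bars) in each library. The sums lie between 1581 and 1961 reads while the division among these copies changes from library to library, with Srp54a at 712 reads in transgenic 2.

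Sec31a, a scaffold of the outer COPII coat, came next among the positive differences. It lay at 41.3, 26.1, 48.8 and 28.7 FPKM, and its genotypes overlapped (log2 difference 0.18 ± 0.36, limma adjusted p = 1.00). Within numbers the difference was 0.24 and 0.13. It was -0.14 without wild type 2 and -0.19 without transgenic 1, fits in which the numbers are unequally represented and Sec31a differs between numbers. At the other end, Sec62 lay at 64.8, 70.5, 51.0 and 65.7 FPKM (-0.22 ± 0.20, limma adjusted p = 1.00), with a difference of -0.34 in number 1 and -0.10 in number 2. Over all libraries but 1 it ran from -0.40 without transgenic 2 to -0.04 without transgenic 1. The minor channel gene Sec61a2 lay at 3.28, 3.15, 2.63 and 2.66 FPKM, with both transgenic libraries below both wild-type ones (-0.21 ± 0.12, limma adjusted p = 1.00). Sec61g had a difference of -0.19 ± 0.24 (limma adjusted p = 1.00), and its genotypes overlapped. Within numbers it was -0.15 and -0.23, but 0.03 with wild type 2 left out.

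Genotypes did not overlap in 7 of the 38 genes. Sec24d and Srp54a (5.26% of the 38) were higher in transgenic islets, against 12.2% of all genes compared, and Sec61a2, Spcs3, Srp9, Sar1a and Tmed3 (13.2%) were lower, against 9.03%. Spcs3, a signal peptidase subunit, lay at 82.4, 78.5, 72.5 and 69.7 FPKM. Tmed3 lay at 98.3, 91.5, 85.3 and 86.2, and Sar1a at 89.5, 83.6, 82.1 and 82.3. The gap between genotypes was narrow for Sar1a. By role, the median log2 difference of the 6 Sec61 genes was -0.13 in number 1 and -0.13 in number 2, and that of the 3 p24 genes was -0.16 and -0.08. The 3 COPI genes had medians of -0.08 and -0.03 and the 10 COPII genes of 0.03 and 0.01. Medians had opposite signs in the 2 numbers for the 4 TRAP genes (-0.17 and 0.08), the 5 signal peptidase genes (-0.15 and 0.08) and the 7 genes of the recognition particle and its receptor (-0.04 and 0.17).

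The larger differences lay between library numbers. What the numbers stand for is not stated in the labels, so the contrast is given as number 2 minus number 1 with genotype as a term in limma. That fit leaves 1 residual degree of freedom per gene, and its p-values rest mostly on variance shared across genes. It called 8 of the 38 genes lower in number 2 and 4 higher, against 14.1% and 13.4% of all genes compared. With no filter on low values only the calls of Sec31a and Srprb remained among the 12. Voom on the recovered reads called 17 of the 38 lower and 7 higher, against 2898 lower and 2662 higher of all 12716 genes compared. The median was -0.16 in wild type and -0.04 in transgenic islets, against 0.01 and 0.00 over all genes. Values of the numbers did not overlap for 18 genes that were lower in number 2 (32.4% of all genes) and 9 that were higher (34.4%).

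**Figure D5:**
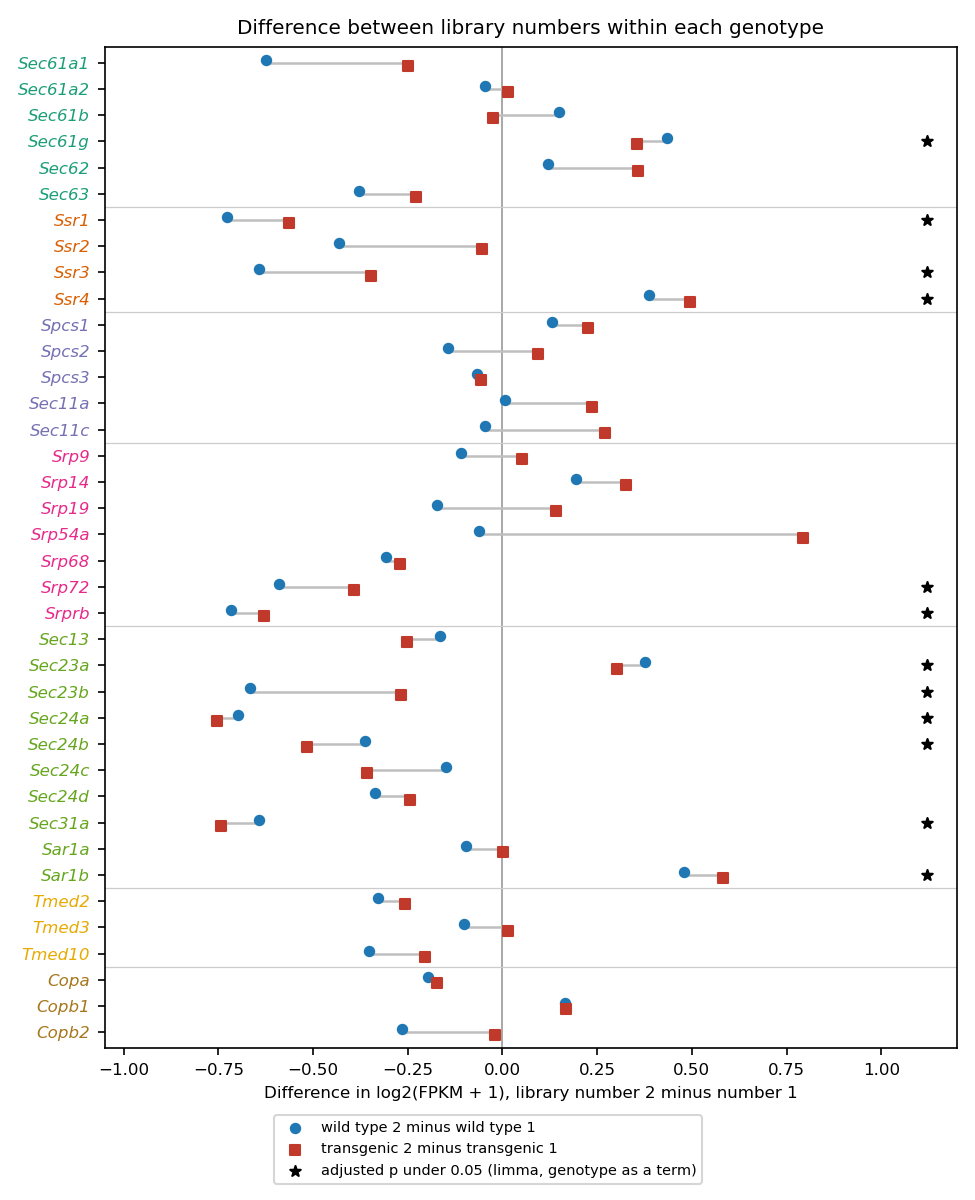
Difference in log2(FPKM + 1) between library number 2 and number 1 for each gene, blue circles within wild type and red squares within transgenic islets, joined by a grey line. Stars mark the 12 genes with an adjusted p under 0.05 in limma with genotype as a term, 8 lower and 4 higher in number 2.

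The 10 COPII genes held 6 of the 12 calls, 2 higher and 4 lower in number 2. Of all genes compared, 13.4% were called higher and 14.1% lower. Sec24a fell most, from 5.20 and 5.12 FPKM in wild type 1 and transgenic 1 to 2.82 and 2.63 in wild type 2 and transgenic 2 (-0.73 ± 0.08, limma adjusted p = 0.00827). Sec31a fell from 41.3 and 48.8 to 26.1 and 28.7 (-0.69 ± 0.08, limma adjusted p = 0.00911), and Sec24b from 9.19 and 10.6 to 6.92 and 7.13 (-0.44 ± 0.08, limma adjusted p = 0.0238). In the other direction Sar1b rose from 69.1 and 63.9 to 96.8 and 96.0 (0.53 ± 0.08, limma adjusted p = 0.0162), and Sec23a from 6.62 and 6.42 to 8.89 and 8.15 (0.34 ± 0.08, limma adjusted p = 0.0350). Its paralog Sec23b fell from 31.5 and 30.0 to 19.5 and 24.8 (-0.47 ± 0.12, limma adjusted p = 0.0472).

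Subunits of the TRAP complex also went opposite ways. Ssr1 fell from 26.5 and 24.3 FPKM in wild type 1 and transgenic 1 to 15.6 and 16.1 in wild type 2 and transgenic 2 (-0.65 ± 0.08, limma adjusted p = 0.0118), and Ssr3 from 114 and 101 to 72.6 and 79.0 (-0.50 ± 0.10, limma adjusted p = 0.0300). Ssr4 rose from 83.6 and 72.4 to 110 and 102 (0.44 ± 0.08, limma adjusted p = 0.0239). Ssr2 was lower in number 2 in both genotypes but did not pass (limma adjusted p = 0.181). Among the Sec61 genes limma called only Sec61g (0.40 ± 0.08, limma adjusted p = 0.0272), while Sec61a1 narrowly missed in the other direction (-0.44 ± 0.12, limma adjusted p = 0.0504). Voom also called Sec61a1 and Sec63 lower (voom adjusted p = 5.48e-05 and 0.00193) and Sec62 higher (voom adjusted p = 0.0304).

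Srprb, the receptor subunit, fell from 11.8 and 13.0 FPKM to 6.79 and 8.04 (-0.67 ± 0.08, limma adjusted p = 0.00911), and Srp72 from 45.4 and 39.9 to 29.8 and 30.2 (-0.49 ± 0.09, limma adjusted p = 0.0225). The 5 signal peptidase, 3 p24 and 3 COPI genes had no call in limma. Their limma differences lay between -0.29 for Tmed2 and 0.18 for Spcs1. Voom called Tmed2 and Tmed10 lower in number 2 (voom adjusted p = 0.00404 and 0.00613). Copb1 had nearly the same small difference in both genotypes, 0.17 in each.

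Several measures moved with library number beside these genes. Acinar markers were 4.62 times as high in wild type 1 as in wild type 2 and 3.71 times in transgenic 1 as in transgenic 2. Delta and PP cell markers summed to 8146, 15108, 8470 and 15180 FPKM, lower in number 1, and beta cell markers to 223828, 286857, 151540 and 271466. Most of the beta cell sum was Ins2, at 152363, 211742, 89340 and 200260. Across the 38 genes, Spearman's rho between the number difference and the longest transcript length was -0.38, against -0.06 over all genes compared, and with GC content it was -0.20 against -0.19. Genes share libraries and complexes in these values. The part of cell mixture and transcript length in the number difference was not tested.

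Other genes of the route were taken as 4 further lists. By genotype, limma called 0 of their genes in either direction, and 0 had an unadjusted p under 0.05. Their median genotype differences were 0.03 for 28 other targeting and insertion genes, -0.02 for 12 oligosaccharyltransferase genes, which add sugars to entering chains, 0.03 for 29 further COPII and export genes and 0.02 for 23 further COPI and retrieval genes. Between numbers, limma called 1 higher and 1 lower, 3 and 3, 2 and 13, and 1 and 11 in these lists, against 13.4% higher and 14.1% lower of all genes compared. The calls lower in number 2 were thus 1 of 28, 3 of 12, 13 of 29 and 11 of 23. The ER chaperone Hspa5, which pulls chains through the channel and folds them, fell from 1255 and 1292 FPKM in wild type 1 and transgenic 1 to 333 and 438 in wild type 2 and transgenic 2 (-1.74 ± 0.12, limma adjusted p = 0.00311). Also lower in number 2 were Sec16a, a scaffold of ER exit sites (-0.89 ± 0.08, limma adjusted p = 0.00541), Preb, the exchange factor of the Sar1 proteins (-0.69 ± 0.08, limma adjusted p = 0.00895), the cargo receptor gene Surf4, the GTPase gene Arf4, Rint1, Rpn1, Rpn2 and the retrieval receptor gene Kdelr1. Tmem258, a small oligosaccharyltransferase subunit, rose from 27.4 FPKM in wild type 1 to 57.4 in wild type 2 (over both genotypes 1.04 ± 0.08, limma adjusted p = 0.00380), and Emc9 rose as well (0.73 ± 0.08, limma adjusted p = 0.00816).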

How the data were processed

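Islet RNA of 4 libraries was sequenced from total RNA with an Illumina TruSeq kit, per the labels. The authors deposited FPKM with gene lengths and GRCm38 positions. The tool HTSeq 0.6.0 and the build GRCm38 are named, per the submitters' processing notes. The aligner, the annotation release and whether strand was used are not given in the sources used here. Without strand, reads of overlapping genes, such as Sec61a2 with Nudt5, Spcs1 with Glt8d1 and Copa with Ncstn, cannot be told apart.

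Multiplied by gene length, every FPKM value came to whole steps (tolerance 0.001), which were taken as reads. A single read over 1 kilobase equals 0.0386 to 0.0476 FPKM, depending on the library. Genes with at least 1 FPKM in 2 libraries were fitted with limma 3.58.1 in R 4.3.3 (eBayes with trend) on log2(FPKM + 1), which understates changes of low genes, 2-sided, with Benjamini-Hochberg adjustment over all 12716 and a threshold of 0.05. Voom used library sizes corrected by median ratios. GC content, transcript lengths and 3′ UTRs came from GENCODE M21, and 12705 genes had a GC content. Fits were tested on simulated data. The members, lists, motifs and rules were chosen with earlier results of these data known. Fold changes with errors were given for members past the threshold, the 3 largest in each direction and Srp54a, and up to 3 called genes per list were named. Sec61a1, Ssr2, Sec23b and Copb1 were named further after their values were seen. Alternatives were another pseudocount, other filters, other scalings, GC removal (lowess, span 0.3), voom, each library left out and library number as a term.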

Additional observations from a re-analysis of the deposited data

How the results depend on the processing

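With library number as a replicate block, limma called 0 genes higher and 0 lower (1360 at an unadjusted p under 0.05, Sec24d the only one of the 38), and no call on a gene of the pathway changed. The numbers are a hint of pairing from the data only: deviations from the genotype means correlated at 0.775 between libraries of the same number. With 2 libraries per genotype this value is the same for both numbers by construction, so it counts as 1 observation. The replicate block with the GC curve removed called 3 genes higher and 1 lower, and voom with the replicate block 176 and 41, with 1 of the 38 higher, Srp54a. Each library left out in turn, the median genotype difference of the 38 genes ran from -0.129 to 0.0868, that of Sec31a from -0.188 to 0.556 (-0.136 without wild type 2) and that of Sec61g from -0.406 to 0.0298; the numbers are then unequally represented. Between numbers, leaving out a library leaves no residual degrees of freedom, so only values were computed. With no filter on low values limma called 217 genes higher and 374 lower in number 2, and of the 38 genes 0 and 2; the 10 calls lost were of Sar1b, Sec23a, Sec23b, Sec24a, Sec24b, Sec61g, Srp72, Ssr1, Ssr3 and Ssr4. A filter of at least 5 FPKM in 2 libraries left out Sec61a2 and Srp54a. Of the remaining genes of the pathway limma then called 15 lower and 4 higher, against 1565 lower and 1598 higher among all genes in that fit. Voom called 2662 higher and 2898 lower, and 7 and 17 of the 38. The causes were not tested. The number difference of Srp54a in limma went from 0.37 to -0.00433 with its copies summed. Voom, on Srp54a alone, called it higher in number 2 (0.50 ± 0.14, voom adjusted p = 0.00231). The calls of Sec23b at a pseudocount of 0.1 and of Sec23a with GC removed also ended. With GC removed limma nonetheless called more of the 38 genes lower, 12, and 3 higher, against 2058 lower and 1844 higher of all genes.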
